A study of Mus musculus with 7 samples.

Results

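The proteasome genes described here are the genes of the mouse array whose symbols start with Psma to Psmg followed by a digit. They were measured in OT-I cells, CD8 T cells with a transgenic receptor for a peptide of chicken ovalbumin, that had met antigen in different settings. Of 18194 genes with a single symbol on the array, 49 matched, through 103 probe sets, and for each gene the brightest probe set, by its average across the arrays, was used. Of the 49, 47 code for subunits, activators, an inhibitor or assembly factors of the proteasome, and 2 (Psmc3ip, a partner of recombination enzymes in meiosis, and Psme3ip1, which binds the activator Psme3) match by symbol but name no subunit and were kept out of the counts. The filter on low values, a log2 value of at least 5 on at least 2 arrays, was passed by 45 of the 47. The other 2 were Psma8, an alpha subunit of the testis proteasome, whose highest value was 2.76, and Psmb11, the beta subunit of the thymus proteasome, whose highest value was 2.27. The activator gene Psme2 was not named here because its probe set carries the symbols of 2 genes.

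All cells were Ly5.1 OT-I cells that were CD44lo at transfer, carried the division dye CFSE and were sorted as CD8+ Ly5.1+ on a C57BL/6 background. RIP-OVAhi hosts, which make ovalbumin under the rat insulin promoter, served as the model of deletional tolerance, and their divided cells came from sacral and pancreatic lymph nodes (n = 2 arrays, 20 mice pooled per array, 60 h). OCS/LPS hosts were primed with ovalbumin-coated splenocytes and lipopolysaccharide as the model of immunity (n = 2, spleen, 10 mice per array, 60 h). Rag hosts (Rag-/-) gave cells that divided by lymphopenia-induced proliferation (n = 1, spleen, 10 mice, 5 days), and antigen-free B6 hosts gave undivided naive cells (n = 2, spleen, 10 mice per array, 60 h). Cells of the first 3 groups had divided at least 2 times. Tissue cannot be told apart from condition for RIP-OVAhi, nor time for Rag.

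The proteasome degrades proteins that carry ubiquitin chains. Its 20S core is a barrel of alpha rings, which gate the channel, around beta rings, of which Psmb5, Psmb6 and Psmb7 carry the cutting sites. The 19S cap has a base with ATPases (Psmc genes) that unfold substrates and other subunits (Psmd genes) that bind and remove ubiquitin. In lymphocytes, and in other cells under interferon-gamma, Psmb8, Psmb9 and Psmb10 take the places of Psmb5, Psmb6 and Psmb7 and form the immunoproteasome, which cuts peptides for MHC class I. Dedicated chaperones assemble the core and the cap.

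Values are log2 expression values, and a difference of 1 is a 2-fold change. A gene was called when its adjusted p, from limma fitted on all 7 arrays and adjusted by Benjamini-Hochberg over 8203 tested genes, was under 0.05. The replicates of each group correlated across genes with r of 0.991 (RIP-OVAhi), 0.991 (OCS/LPS) and 0.975 (naive). All 7 CD8 T cell markers tested for lay above log2 5 on every array. The naive arrays stood apart from each other: 347 genes differed more than 2-fold between them, against 28 genes for RIP-OVAhi and 31 for OCS/LPS. Of the 45 proteasome genes, 36 were higher on naive 2 than on naive 1 (80.0%, against 50.5% of all tested genes), with a median difference of 0.29 and the widest gap, 0.89, for Psmb1. The summed level of 6 markers of dividing cells was 13.88 to 14.03 in RIP-OVAhi, 14.30 to 14.57 in OCS/LPS, 11.70 in Rag and 7.95 to 8.68 in naive cells on the log2 scale. The 3' minus 5' difference of the Gapdh control, which grows as RNA is degraded or shortened in amplification, was 2.03 to 2.08 in RIP-OVAhi, 1.85 to 1.89 in OCS/LPS, 2.21 in Rag and 2.43 to 2.59 in naive. The same difference of the actin control was 1.18 and 1.35 in RIP-OVAhi and 1.27 and 1.25 in OCS/LPS, which overlapped. It was 1.52 in Rag and 1.55 and 1.82 in naive. The dividing cell markers and the Gapdh control moved with the groups in the same order as many proteasome genes. The actin control did not separate RIP-OVAhi from OCS/LPS. The part of these measures in the results was not tested. Of 8 myeloid markers 4 reached log2 5 on some array, with summed levels of 6.13 to 6.39 in RIP-OVAhi, 8.08 to 8.71 in OCS/LPS, 9.93 in Rag and 8.41 to 9.08 in naive cells, while Cd14 stayed at or below 1.98 on all arrays. Of 4 B cell markers 3 did, with summed levels of 8.01 to 8.54 in RIP-OVAhi, 9.19 to 9.64 in OCS/LPS, 7.08 in Rag and 8.24 to 8.93 in naive cells, while Cd79a stayed at or below 2.24. Of 2 red cell markers, Alas2 reached log2 5 on the Rag array, and neither of 2 pancreas markers did on any array.

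Against naive cells, the proteasome genes that changed were all higher, in both antigen-driven groups. In RIP-OVAhi cells 11 of 45 rose (24.4%, against 18.1% of all tested genes called higher) and none fell (against 11.6% called lower), with differences of at most 0.97. In OCS/LPS cells 18 of 45 rose (40.0%, against 20.5% of all tested genes) and none fell (against 12.3%), and 3 of them, Psmc1, Psmb7 and Psmd13, were at least 2-fold higher. The median difference over the 45 genes was 0.26 in RIP-OVAhi and 0.43 in OCS/LPS, beside 0.06 (RIP-OVAhi) and 0.08 (OCS/LPS) over all tested genes. All 11 genes called in RIP-OVAhi were among the 18 called in OCS/LPS, and both comparisons share the naive arrays. The RIP-OVAhi share lay close to that of all tested genes. In bulk RNA, fewer cells that express a gene and less RNA per cell cannot be told apart.

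The counts depended on single arrays, as did those over all tested genes, which are given at the end. With either RIP-OVAhi array left out, none of the 11 calls in RIP-OVAhi remained, and with either OCS/LPS array left out, which leaves fewer degrees of freedom, 3 remained. In OCS/LPS the 18 calls became 5 without OCS/LPS 1 and 2 without OCS/LPS 2, and 12 with either RIP-OVAhi array left out. The size of the differences depended on the naive arrays. Without naive 2, the higher of the naive arrays for these genes, the median over the 45 genes was 0.36 in RIP-OVAhi and 0.51 in OCS/LPS. Without naive 1 it was 0.1 in RIP-OVAhi and 0.21 in OCS/LPS. Centring each array on its median removed a shift of 0.12 for RIP-OVAhi and 0.15 for OCS/LPS. It left 6 of 45 genes called higher in RIP-OVAhi, where 14.5% of all tested genes were. In OCS/LPS it left 15 of 45 called higher, where 16.3% of all tested genes were, and 1, Psme1, called lower. Over all tested genes, centring gave 1192 higher and 1296 lower calls in RIP-OVAhi, against 1481 and 948 as deposited, and 1340 higher and 1461 lower calls in OCS/LPS, against 1685 and 1013 as deposited.

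**Figure D1:**
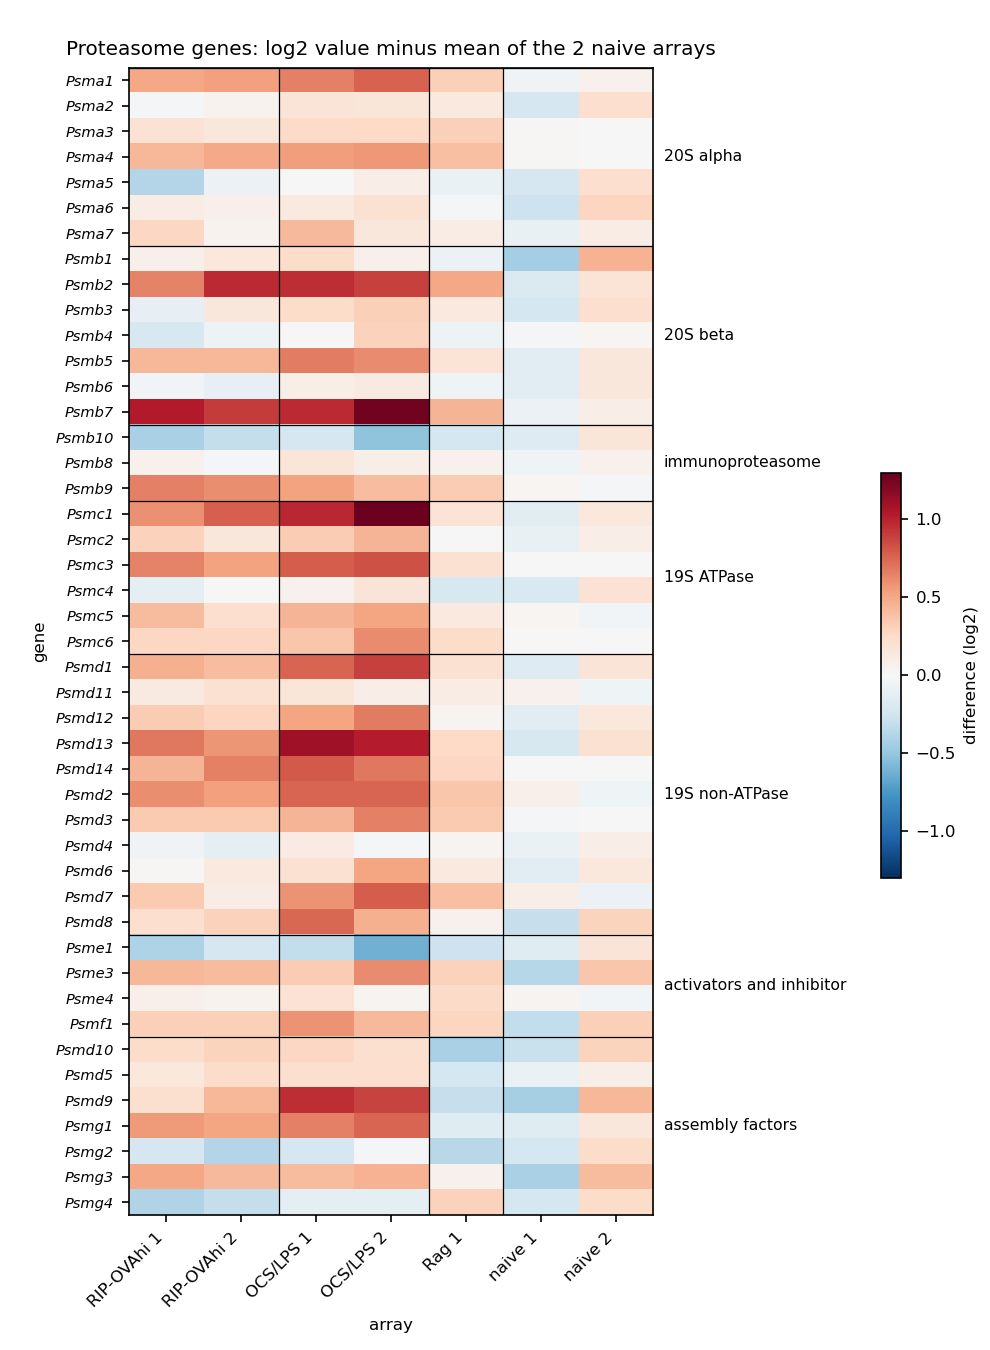
Heat map of the 45 tested proteasome genes (rows, by class) on the 7 arrays (columns). Colour is the log2 value minus the mean of the 2 naive arrays, red for higher and blue for lower. The reddest cells include Psmc1, Psmb7 and Psmd13 in OCS/LPS, and Psmb10 and Psme1 are blue in the RIP-OVAhi, OCS/LPS and Rag columns.

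Of the 3 immunoproteasome genes, Psmb9 rose in RIP-OVAhi and OCS/LPS, and Psmb8 and Psmb10 were not called in any comparison. Psmb9, the immune form of beta 1, read 11.86 and 11.80 in RIP-OVAhi cells, 11.72 and 11.60 in OCS/LPS, 11.53 in Rag, and 11.23 and 11.17 in naive cells. Every array of divided cells lay above both naive arrays. Psmb9 rose by 0.63 ± 0.12 in RIP-OVAhi (SE, adjusted p = 0.0119) and by 0.47 ± 0.12 in OCS/LPS (adjusted p = 0.0289), against naive. The OCS/LPS call was lost after centring (0.32, adjusted p = 0.118) and with only the 2 groups fitted (adjusted p = 0.072). The Rag difference of 0.34 ± 0.14 was not called (adjusted p = 0.297).

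Psmb8, the immune form of beta 5, read 11.25 and 11.17 in RIP-OVAhi cells, 11.35 and 11.27 in OCS/LPS, 11.25 in Rag, and 11.13 and 11.25 in naive cells. All arrays lay within 11.13 to 11.35. The difference from naive was 0.02 in RIP-OVAhi, with a 95% interval of -0.27 to 0.32, and 0.12 in OCS/LPS, with an interval of -0.17 to 0.42, and after centring both were below 0 (-0.10 in RIP-OVAhi and -0.02 in OCS/LPS). Psmb10, the immune form of beta 2, read 10.74 and 10.85 in RIP-OVAhi cells, 10.94 and 10.64 in OCS/LPS, 10.93 in Rag, and 10.99 and 11.32 in naive cells. All arrays of divided cells lay below both naive arrays, yet the differences of -0.36 ± 0.17 in RIP-OVAhi (adjusted p = 0.175) and -0.37 ± 0.17 in OCS/LPS (adjusted p = 0.158) were not called.

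Of the constitutive counterparts, Psmb7 rose in both groups, Psmb5 in OCS/LPS, and Psmb6 was not called in either. Psmb7, the standard beta 2, read 10.78 and 10.66 in RIP-OVAhi cells, 10.72 and 11.00 in OCS/LPS, 10.19 in Rag, and 9.67 and 9.84 in naive cells. The RIP-OVAhi and OCS/LPS arrays overlapped, and all lay above the Rag array, which lay above both naive arrays. Psmb7 rose by 0.97 ± 0.15 in RIP-OVAhi, a fold of 1.96 and the widest rise of any proteasome gene there (adjusted p = 0.00652), and by 1.11 ± 0.15 in OCS/LPS, a fold of 2.16 (adjusted p = 0.00381).

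Psmb5, the standard beta 5, read 11.68 and 11.68 in RIP-OVAhi cells, 11.92 and 11.86 in OCS/LPS, 11.43 in Rag, and 11.10 and 11.40 in naive cells. The OCS/LPS arrays were highest, and both RIP-OVAhi arrays and the Rag array lay above naive. It rose by 0.64 ± 0.14 in OCS/LPS (adjusted p = 0.0188), a call lost with only the 2 groups fitted (adjusted p = 0.0566). Its difference of 0.43 ± 0.14 in RIP-OVAhi was not called (adjusted p = 0.0681), except with an intensity trend (adjusted p = 0.0459). Psmb6, the standard beta 1, read 10.72 and 10.65 in RIP-OVAhi cells, 10.84 and 10.88 in OCS/LPS, 10.70 in Rag, and 10.62 and 10.91 in naive cells. Its naive arrays spanned all the others, and the differences were -0.08 ± 0.14 in RIP-OVAhi and 0.10 ± 0.14 in OCS/LPS (-0.05 after centring), neither called.

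**Figure D2:**
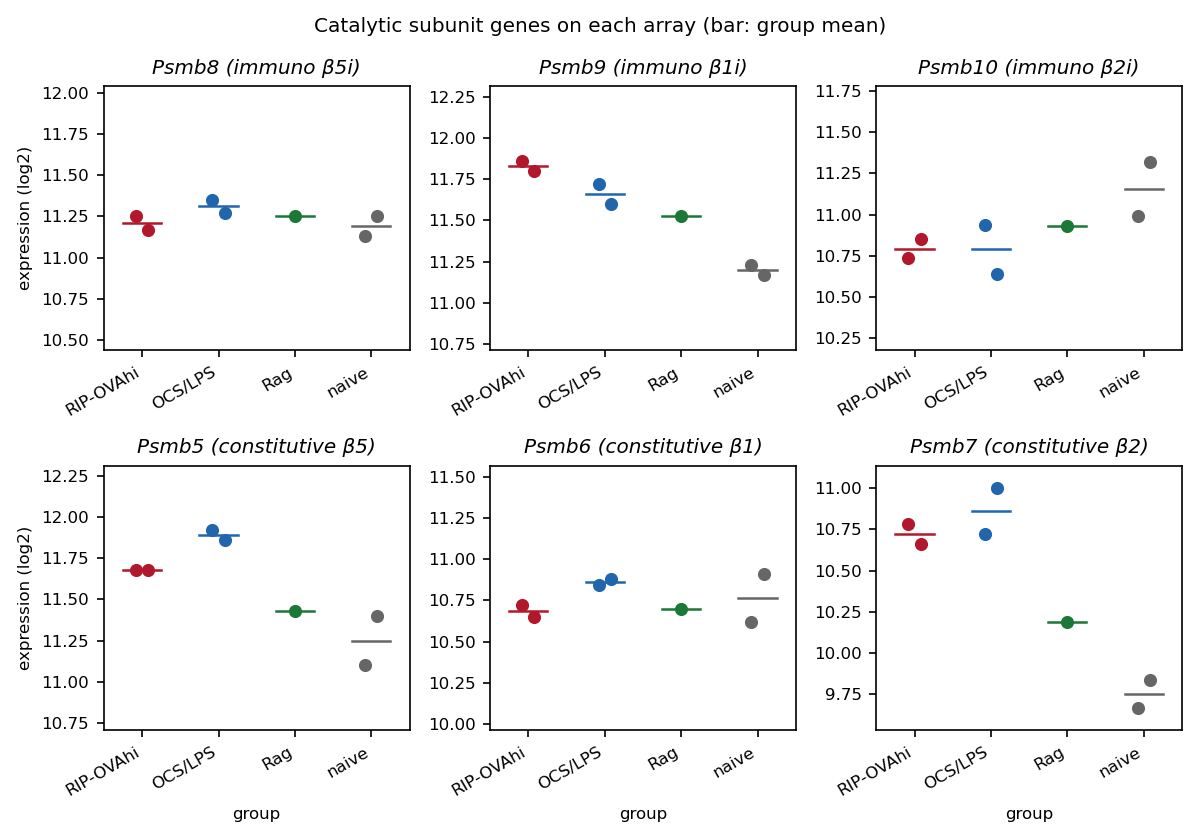
Log2 expression (y axis, the same span of values in each panel) of the catalytic subunit genes on each array, with immune forms on the top row and their constitutive counterparts below. Points are arrays, bars are group means, and groups on the x axis are RIP-OVAhi, OCS/LPS, Rag (1 array) and naive. Psmb7 separates naive cells from RIP-OVAhi and OCS/LPS by 0.97 and 1.11, and Psmb8 stays within 11.13 to 11.35.

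Set against the naive mean on the same array, each immune form could be placed beside the subunit it replaces. Psmb10 minus Psmb7 was -1.45 and -1.21 on the RIP-OVAhi arrays, -1.18 and -1.78 on the OCS/LPS arrays and -0.66 on the Rag array, against -0.08 and 0.08 on the naive arrays. Psmb8 minus Psmb5 was -0.37 and -0.45 on the RIP-OVAhi arrays, -0.51 and -0.53 on the OCS/LPS arrays and -0.12 on the Rag array, against 0.09 and -0.09 on the naive arrays. Psmb9 minus Psmb6 went the other way, at 0.71 and 0.71 on the RIP-OVAhi arrays, 0.45 and 0.29 on the OCS/LPS arrays and 0.40 on the Rag array, against 0.18 and -0.18 on the naive arrays. For the beta 2 pair the gap was wider than the difference between the naive arrays on every array of divided cells. For the beta 5 pair this held on the RIP-OVAhi and OCS/LPS arrays but not on the Rag array. For the beta 1 pair it held on every array of divided cells but OCS/LPS 2. The pair values are differences of change, not of level, since the levels of separate probe sets cannot be set against each other. RNA of cells with MHC class II, which also use the immunoproteasome, differed between the groups. The summed level of 5 class II markers was 5.73 to 5.92 in RIP-OVAhi, 7.69 to 8.43 in OCS/LPS, 9.17 in Rag and 7.70 to 7.72 in naive cells. Of these markers 4 reached log2 5 on some array and Ciita stayed at or below 2.51 on all, and their part in the result was not tested.

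Of the alpha subunits, Psma1 and Psma4 rose in both groups and the other 5 tested were not called in either. Psma1 differed from naive by 0.51 in RIP-OVAhi cells and 0.71 in OCS/LPS cells, and Psma4 by 0.46 in RIP-OVAhi and 0.55 in OCS/LPS. For Psma1 both calls rest on the brightest of 4 probe sets, of which 2 lay below the filter. With the mean of all 4 the differences were -0.24 in RIP-OVAhi (adjusted p = 0.163) and -0.02 in OCS/LPS (adjusted p = 0.898). Its RIP-OVAhi call was also lost after centring (adjusted p = 0.0543) and with only the 2 groups fitted (adjusted p = 0.0593). The RIP-OVAhi call of Psma4 was lost after centring and with the replicate number as a block (adjusted p = 0.0524). It was also lost with only the 2 groups fitted (adjusted p = 0.0688). The other 5 had differences of -0.23 to 0.17 in RIP-OVAhi and 0.04 to 0.28 in OCS/LPS. Of these, Psma3 was called with no filter on low values (adjusted p = 0.0404 in RIP-OVAhi and 0.0157 in OCS/LPS). Among the beta subunits outside the immunoproteasome, Psmb2, a beta subunit without a cutting site, rose next to Psmb7. It read 9.12 and 9.45 in RIP-OVAhi cells, 9.44 and 9.37 in OCS/LPS, 8.98 in Rag, and 8.29 and 8.66 in naive cells. The arrays of divided cells all lay above those of naive cells. Psmb2 rose by 0.81 ± 0.18 in RIP-OVAhi (adjusted p = 0.0215) and by 0.92 ± 0.18 in OCS/LPS (adjusted p = 0.0127). With no filter on low values both calls were lost (adjusted p = 0.0811 in RIP-OVAhi and 0.056 in OCS/LPS). The RIP-OVAhi call was also lost with only the 2 groups fitted (adjusted p = 0.0608). Psmb1, Psmb3 and Psmb4, also without cutting sites, had differences of -0.14 to 0.10 in RIP-OVAhi and 0.15 to 0.28 in OCS/LPS, and none was called. Psmb4 depended on the probe set. Leaving out _s_at and _x_at probe sets, which can match several transcripts, it was called higher in both groups. The differences were then 0.42 in RIP-OVAhi (adjusted p = 0.043) and 0.54 in OCS/LPS (adjusted p = 0.0183). The mean of its probe sets was also called in OCS/LPS (0.34, adjusted p = 0.0494).

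Of the 6 ATPases of the 19S cap, 2 rose in RIP-OVAhi and 4 in OCS/LPS, with median differences of 0.30 in RIP-OVAhi and 0.48 in OCS/LPS. Psmc1, an ATPase that helps to open the gate of the core, read 10.37 and 10.56 in RIP-OVAhi cells, 10.76 and 11.05 in OCS/LPS, 9.96 in Rag, and 9.63 and 9.92 in naive cells. The OCS/LPS arrays were the highest, the RIP-OVAhi arrays next, and neither overlapped with naive. It rose by 1.13 ± 0.17 in OCS/LPS, a fold of 2.19 (adjusted p = 0.00525), and by 0.69 ± 0.17 in RIP-OVAhi, a fold of 1.61 (adjusted p = 0.0289). The RIP-OVAhi call was lost with the mean of both its probe sets, of which 1 lay below the filter (0.33, adjusted p = 0.0826), with no filter on low values (adjusted p = 0.0923), with only the 2 groups fitted (adjusted p = 0.0561) and without naive 1 (0.54, adjusted p = 0.0633). Psmc3, another of the ATPases, read 10.93 and 10.81 in RIP-OVAhi cells, 11.08 and 11.12 in OCS/LPS, 10.49 in Rag, and 10.30 and 10.29 in naive cells. Its groups did not overlap, and it rose by 0.57 in RIP-OVAhi and 0.81 in OCS/LPS. Psmc5 and Psmc6 rose in OCS/LPS by 0.48 and 0.49, and both calls were lost after centring and with the replicate block (adjusted p = 0.0515 for Psmc5 and 0.0509 for Psmc6). Both were also lost with only the 2 groups fitted (adjusted p = 0.0639 for Psmc5 and 0.0858 for Psmc6), and Psmc6 with no filter (adjusted p = 0.0537). Psmc2 and Psmc4 were not called, with differences of 0.23 and -0.06 in RIP-OVAhi and of 0.39 and 0.12 in OCS/LPS. Psmc2 was called in OCS/LPS with _s_at and _x_at probe sets left out (0.61, adjusted p = 0.0133) and with an intensity trend (adjusted p = 0.0401).

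Of the 11 non-ATPase subunits of the cap, 3 rose in RIP-OVAhi and 7 in OCS/LPS, with median differences of 0.31 in RIP-OVAhi and 0.61 in OCS/LPS. Psmd13, a structural subunit of the lid, read 10.07 and 9.95 in RIP-OVAhi cells, 10.48 and 10.40 in OCS/LPS, 9.64 in Rag, and 9.17 and 9.58 in naive cells. No array of one group overlapped with another, with OCS/LPS highest and naive lowest. It rose by 0.63 ± 0.17 in RIP-OVAhi (adjusted p = 0.0366) and by 1.06 ± 0.17 in OCS/LPS (adjusted p = 0.00633). The RIP-OVAhi call was lost after centring (0.51, adjusted p = 0.0626), with the replicate block (adjusted p = 0.0526), with no filter (adjusted p = 0.108), with only the 2 groups fitted (adjusted p = 0.0855) and with the mean of all 4 probe sets (0.27, adjusted p = 0.0887). Psmd1, a large scaffold subunit of the base, read 9.84 and 9.78 in RIP-OVAhi cells, 10.14 and 10.27 in OCS/LPS, 9.58 in Rag, and 9.21 and 9.55 in naive cells. The groups did not overlap, in the same order as for Psmd13. It rose by 0.83 ± 0.15 in OCS/LPS (adjusted p = 0.0108), and its difference in RIP-OVAhi was 0.44. Psmd14, the enzyme that removes ubiquitin chains as substrates enter, rose by 0.55 in RIP-OVAhi cells and 0.74 in OCS/LPS cells, and Psmd2, the other large scaffold of the base, by 0.56 in RIP-OVAhi and 0.76 in OCS/LPS. In RIP-OVAhi the Psmd14 call was lost after centring. That of Psmd2 was lost with the mean of its 2 probe sets, of which 1 lay below the filter (0.27, adjusted p = 0.0843). Both RIP-OVAhi calls were also lost with only the 2 groups fitted (adjusted p = 0.0633 for Psmd14 and 0.0524 for Psmd2). Psmd3, Psmd7 and Psmd12, subunits of the lid, rose in OCS/LPS by 0.56, 0.68 and 0.60. With the mean of its 3 probe sets, of which 1 lay below the filter, Psmd7 was no longer called (0.17, adjusted p = 0.233). The calls of Psmd7 (adjusted p = 0.0547) and Psmd12 (adjusted p = 0.0638) were lost with no filter on low values. Those of Psmd3 (adjusted p = 0.0601) and Psmd12 (adjusted p = 0.0706) were lost with only the 2 groups fitted. The ubiquitin receptor Psmd4 was not called, with differences of -0.08 in RIP-OVAhi and 0.04 in OCS/LPS, nor were Psmd6, Psmd8 and Psmd11. Psmd6 was called in OCS/LPS with the mean of all its probe sets (0.53, adjusted p = 0.0392).

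**Figure D3:**
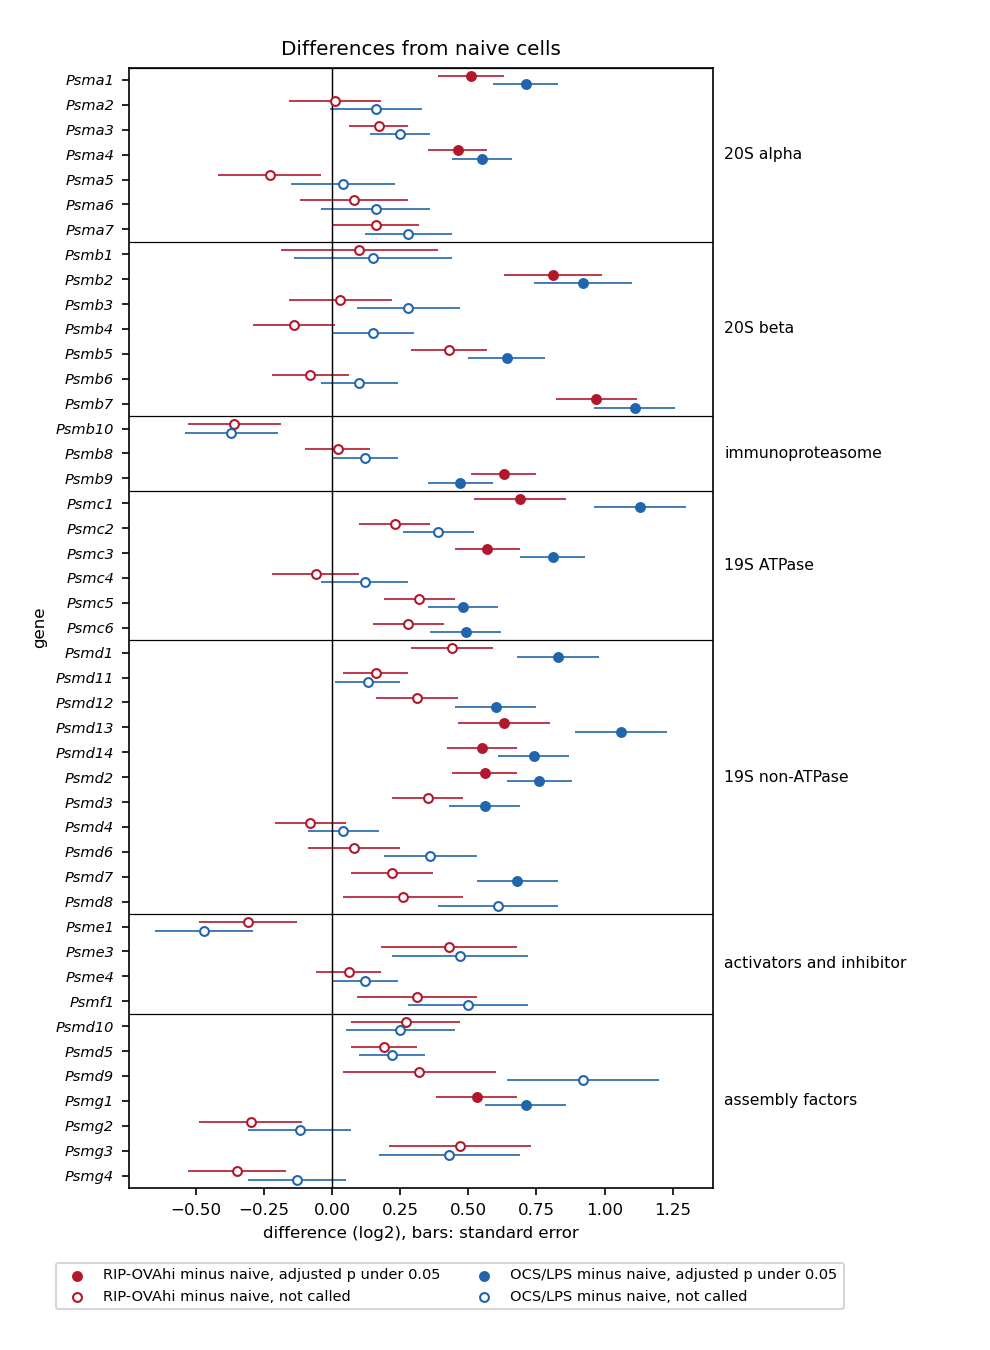
Difference from naive cells (x axis, log2, bars are standard errors) of each of the 45 tested proteasome genes (rows, by class), red for RIP-OVAhi and blue for OCS/LPS. Filled points have an adjusted p under 0.05 and open points do not. Filled points lie on the right of 0 in all cases, 11 for RIP-OVAhi and 18 for OCS/LPS.

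None of the 4 activator and inhibitor genes was called against naive. Psme1, which with Psme2 forms the interferon-inducible activator of the core, read 11.73 and 11.91 in RIP-OVAhi cells, 11.81 and 11.51 in OCS/LPS, 11.86 in Rag, and 11.97 and 12.30 in naive cells. All arrays of divided cells lay below both naive arrays, as for Psmb10. The differences were -0.31 ± 0.18 in RIP-OVAhi (adjusted p = 0.241) and -0.47 ± 0.18 in OCS/LPS (adjusted p = 0.093), and the second was called after centring, at -0.62. Psme3 (a nuclear activator), Psme4 (an activator linked to histone breakdown) and Psmf1 (an inhibitor of the core in vitro) had differences of 0.06 to 0.43 in RIP-OVAhi and 0.12 to 0.50 in OCS/LPS. Psme3 was called in OCS/LPS with the mean of all its probe sets (0.44, adjusted p = 0.0437).

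Of the 7 assembly factors, only Psmg1 was called. Psmg1, a chaperone of the alpha ring, read 9.98 and 9.94 in RIP-OVAhi cells, 10.08 and 10.19 in OCS/LPS, 9.27 in Rag, and 9.27 and 9.58 in naive cells. RIP-OVAhi and OCS/LPS arrays lay above all the others, and the Rag array equalled naive 1. Psmg1 rose by 0.53 ± 0.15 in RIP-OVAhi (adjusted p = 0.0398) and by 0.71 ± 0.15 in OCS/LPS (adjusted p = 0.0148). The RIP-OVAhi call was lost after centring (0.41, adjusted p = 0.0728), with the replicate block (adjusted p = 0.0503), with no filter (adjusted p = 0.0839) and with only the 2 groups fitted (adjusted p = 0.0866). The other 6, the core chaperones Psmg2, Psmg3 and Psmg4 and the cap chaperones Psmd5, Psmd9 and Psmd10, had differences of -0.35 to 0.47 in RIP-OVAhi and -0.13 to 0.92 in OCS/LPS. The widest of these was Psmd9 in OCS/LPS, whose naive arrays read 6.37 and 7.23. Its call there was gained with the replicate block (adjusted p = 0.0389) and with a filter at log2 6 (adjusted p = 0.0475).

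Between the 2 antigen-driven groups no proteasome gene was called, where 2.91% of all tested genes were. Of 45 estimates for RIP-OVAhi minus OCS/LPS, 39 were below 0, with a median of -0.18 beside -0.05 over all tested genes. Estimates above 0 made up 13.3% of the proteasome genes, against 41.9% of all tested genes. In 31 genes (68.9%, against 34.0% of all tested genes) both RIP-OVAhi arrays lay below both OCS/LPS arrays, and Psmb9 was the single gene with both above (2.22%, against 23.5%). By limma, 4 of the 45 genes had an unadjusted p under 0.05, namely Psmd7, Psmc1, Psmd13 and Psmd1. Over all tested genes the share was 16.5%, so these 4 do not set the proteasome genes apart. Their differences were -0.46, -0.44, -0.43 and -0.39, and the lowest adjusted p was 0.217, for Psmd7. The 95% intervals, which are not adjusted for the number of genes, reached a median of 0.37 to either side, and those of these 4 genes lay wholly below 0. For Psmb9 the difference was 0.17, with an interval of -0.12 to 0.46, for Psmb8 it was -0.10 (-0.40 to 0.19), and for Psmb10 it was 0.01 (-0.42 to 0.44). All 6 ATPases and all 7 alpha subunits had estimates below 0. The summed level of the dividing cell markers was also lower in RIP-OVAhi than in OCS/LPS, as were those of the MHC class II, myeloid and B cell markers. Jchain, a B lineage gene, read 1.65 and 2.28 in RIP-OVAhi against 8.01 and 8.45 in OCS/LPS. Ms4a1 was also lower, at 3.74 and 3.98 in RIP-OVAhi against 4.92 and 6.67 in OCS/LPS. Cd79b, the highest B cell marker in RIP-OVAhi, overlapped, at 7.89 and 8.43 in RIP-OVAhi against 8.18 and 8.42 in OCS/LPS. The part of these markers in the result was not tested.

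**Figure D4:**
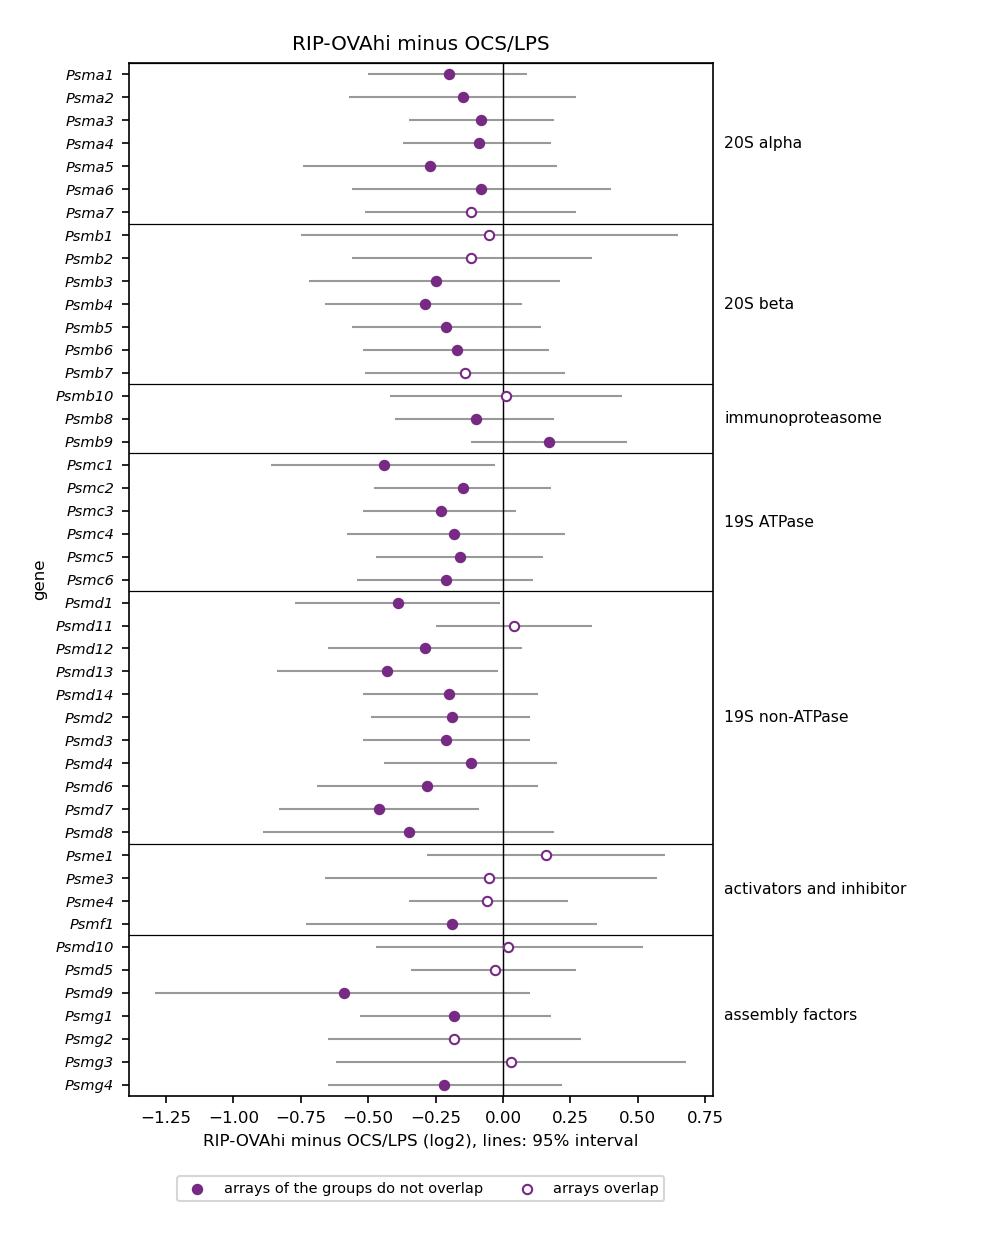
RIP-OVAhi minus OCS/LPS (x axis, log2) for each of the 45 tested proteasome genes (rows, by class), with lines for 95% intervals. Filled points are genes in which the arrays of the groups do not overlap. Of 45 points, 39 lie left of 0, Psmb9 is the filled point right of 0, and 4 intervals exclude 0 before adjustment.

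By group means, Rag lay between naive and both antigen-driven groups in 25 of 45 genes, in 23 of them above naive and in 2 below. Against naive, no proteasome gene was called by limma, where 2.73% of all tested genes were. An unadjusted p under 0.05 was reached by 2 of 45 (Psma4 and Psmd2), against 18.1% of all tested genes. The median difference was 0.13, beside 0.04 over all tested genes, and 32 of 45 estimates were above 0 (71.1%, against 54.7% of all tested genes). The median over the 45 genes was -0.01 without naive 1 and 0.27 without naive 2. On all arrays, the assembly factors had a median of -0.23, with 5 of 7 below 0. The non-ATPase cap subunits had 11 of 11 above 0 and a median of 0.20. RIP-OVAhi against Rag gave no call, beside 16.7% of all tested genes. An unadjusted p under 0.05 was reached there by 6 of 45, against 32.6% of all tested genes. The lowest adjusted p was 0.0512, for Psmg1 at 0.68 ± 0.18. With either naive array left out, more proteasome genes were called in that comparison, and more of all tested genes as well.

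OCS/LPS against Rag gave 4 calls, all higher (8.89%, below the 11.2% of all tested genes). Psmc1 was higher by 0.95 ± 0.21 (adjusted p = 0.0305), Psmg1 by 0.86 ± 0.18 (adjusted p = 0.0264), Psmd13 by 0.80 ± 0.21 (adjusted p = 0.0475) and Psmc3 by 0.61 ± 0.14 (adjusted p = 0.0356). All 4 were also among the genes that rose in OCS/LPS against naive. With the replicate block 1 call, Psmc1, remained, and the adjusted p was 0.0757 for Psmc3, 0.0962 for Psmd13 and 0.0554 for Psmg1. With the mean of all probe sets Psmd13 was higher by 0.19 (adjusted p = 0.326) and Psmc1 by 0.48 (adjusted p = 0.0669), and with only the 2 groups fitted none of the 4 was called. With any single RIP-OVAhi or OCS/LPS array left out, the 4 calls were lost, and fewer of all tested genes were called. With either naive array left out, more proteasome genes and more of all tested genes were called. The Rag group has 1 array, assumed to vary like the others, so these values rest on that array.

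Ordered by group means, 20 of the 45 genes ran OCS/LPS, RIP-OVAhi, Rag, naive, high to low. OCS/LPS had the highest mean in 35 genes and naive the lowest in 30. Naive had the highest mean in 3 genes, and OCS/LPS the lowest in 2. These orders were not counted over all tested genes. Over all 45 genes, the arrays averaged 10.55 and 10.57 in RIP-OVAhi cells, 10.72 and 10.74 in OCS/LPS, 10.42 in Rag, and 10.18 and 10.46 in naive cells. The naive 2 array thus lay above the Rag array, and only RIP-OVAhi and OCS/LPS lay apart from both naive arrays. All tested genes averaged 8.56 and 8.57 for RIP-OVAhi, 8.58 and 8.64 for OCS/LPS, 8.48 for Rag, and 8.4 and 8.43 for naive. RIP-OVAhi thus lay no further above naive 2 in proteasome genes than in all tested genes, while OCS/LPS did. Above naive 1, both groups lay further in proteasome genes.

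Genes that work with the proteasome were set beside it as lists described by counts. Over all tested genes 18.1% were called higher and 11.6% lower in RIP-OVAhi, and 20.5% higher and 12.3% lower in OCS/LPS, so counts this small say little of a list. Of 17 partners and regulators, 2 rose and 1 fell in RIP-OVAhi, and 3 rose and 1 fell in OCS/LPS, no larger a share than over all genes in either direction. The deubiquitinase Usp14, which sits on the cap, rose by 0.53 in RIP-OVAhi cells and 0.74 in OCS/LPS cells, and the fall in both groups was Nfe2l2, a stress transcription factor that can induce proteasome genes. Nfe2l2 read 9.45 and 9.46 in RIP-OVAhi cells, 9.70 and 9.80 in OCS/LPS, 10.48 in Rag, and 10.10 and 10.33 in naive cells, and it fell by 0.76 in RIP-OVAhi (adjusted p = 0.00915) and by 0.46 in OCS/LPS (adjusted p = 0.0408). Nfe2l1, which drives proteasome genes when the proteasome is inhibited, was not called, with differences of 0.12 in RIP-OVAhi and -0.12 in OCS/LPS. The core assembly factor Pomp had differences of 0.39 in RIP-OVAhi and 0.61 in OCS/LPS, neither called. Of 8 genes of ubiquitin supply and extraction, 3 rose in each group. The ATPase Vcp, which pulls proteins out of complexes, rose by 0.62 in RIP-OVAhi cells and 0.72 in OCS/LPS cells, and its cofactor Nploc4 by 0.95 in RIP-OVAhi and 1.22 in OCS/LPS.

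Of 13 genes of MHC class I peptide supply and loading, 2 rose in RIP-OVAhi (Calr and Pdia3) and 2 in OCS/LPS (Pdia3 and Lap3), with none called lower, again no larger a share than over all genes. The peptide transporter genes Tap1 and Tap2, which lie near Psmb8 and Psmb9 in the MHC, had differences of 0.23 and 0.19 in RIP-OVAhi and of -0.00 and 0.11 in OCS/LPS, none called. Of 8 tested regulators of the interferon-gamma response, 2 rose (Irf8 and Jak2) and 2 fell (Irf1 and Gbp2) in RIP-OVAhi, and 1 rose (Irf8) and the same 2 fell in OCS/LPS. Irf1, a transcription factor that induces immunoproteasome genes, fell by 0.58 in RIP-OVAhi (adjusted p = 0.0307) and by 0.63 in OCS/LPS (adjusted p = 0.0219). Gbp2, an interferon-induced GTPase, fell by 1.52 in RIP-OVAhi and by 1.79 in OCS/LPS. Jak2, a kinase of the interferon-gamma receptor, rose by 0.53 in RIP-OVAhi (adjusted p = 0.0253), and its difference of 0.38 in OCS/LPS was not called (adjusted p = 0.066). Irf8, a transcription factor of the same family as Irf1, rose by 3.43 in RIP-OVAhi cells and 2.10 in OCS/LPS cells, and was the one gene of these lists called between the 2 groups, 1.32 higher in RIP-OVAhi (adjusted p = 0.0314).

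Upstream sequence was read from RefSeq promoters of GRCm38.p6, in which 39 of the 47 proteasome genes were found. The stretches below are the 180 bases before the gene start of the 3 immunoproteasome genes, shown because Psmb9 alone of them was called, and of Psmb5, Psmc1 and Psmd13, which rose in OCS/LPS. They end at the base before the start, and capitals mark any match to a motif searched.
Psmb8 (chr17:34198015-34198194, plus strand): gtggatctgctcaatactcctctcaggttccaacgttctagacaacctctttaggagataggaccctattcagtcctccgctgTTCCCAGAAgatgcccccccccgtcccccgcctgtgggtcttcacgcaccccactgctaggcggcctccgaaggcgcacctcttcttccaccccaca
Psmb9 (chr17:34187331-34187510, minus strand): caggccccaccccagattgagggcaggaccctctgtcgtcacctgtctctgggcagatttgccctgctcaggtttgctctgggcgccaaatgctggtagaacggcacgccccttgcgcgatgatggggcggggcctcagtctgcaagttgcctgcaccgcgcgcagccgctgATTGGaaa
Psmb10 (chr8:105938393-105938572, minus strand): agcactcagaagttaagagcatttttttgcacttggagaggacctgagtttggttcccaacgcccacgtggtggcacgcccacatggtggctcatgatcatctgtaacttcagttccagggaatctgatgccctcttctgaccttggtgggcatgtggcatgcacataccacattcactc
Psmb5 (chr14:54617996-54618175, minus strand): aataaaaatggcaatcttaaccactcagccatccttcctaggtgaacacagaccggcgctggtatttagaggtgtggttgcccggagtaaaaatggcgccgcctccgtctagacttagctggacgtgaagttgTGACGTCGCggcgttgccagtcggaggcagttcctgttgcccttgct
Psmc1 (chr12:100110022-100110201, plus strand): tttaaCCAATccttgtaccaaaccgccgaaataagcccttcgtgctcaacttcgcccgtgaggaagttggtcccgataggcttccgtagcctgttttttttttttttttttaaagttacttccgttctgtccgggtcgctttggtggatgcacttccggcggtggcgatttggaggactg
Psmd13 (chr7:140882214-140882393, plus strand): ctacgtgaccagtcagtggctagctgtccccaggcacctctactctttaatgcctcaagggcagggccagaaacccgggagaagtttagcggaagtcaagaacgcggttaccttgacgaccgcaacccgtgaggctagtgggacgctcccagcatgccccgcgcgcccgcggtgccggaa

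The motifs were searched on both strands from 250 bases before to 50 after the start, and may overlap each other. The core of the antioxidant response element, TGACNNNGC, which Nfe2l1 and Nfe2l2 bind, was found in 6 of 39 proteasome genes (15.4%, against 14.0% of 27025 genes). In the stretches shown it is in Psmb5, 47 bases before the start. The gamma-activated site, TTCNNNGAA, was in 3 genes (7.69% against 9.55%), among them Psmb8, 97 bases before the start. The core of the interferon-stimulated response element, GAAANNGAA, was in 7 genes (17.9% against 9.76%), among them Psme1, and CCAAT was in 14 (35.9% against 41.1%), among them Psmb9 and Psmc1. Psmb10 and Psmd13 hold none of the 4 in the stretches shown. A match describes the letters in this window and no binding was measured.

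Probe sets bear on how firmly single genes can be read. Of the 45 genes, 21 had more than 1 probe set above the filter, and all probe sets of a gene had the same sign in 11 of them for RIP-OVAhi minus naive and in 14 for OCS/LPS minus naive. Among called genes, Psma1 had a second, dimmer probe set that went the other way (-0.28 in RIP-OVAhi cells and -0.33 in OCS/LPS cells), and Psmd7 had one in OCS/LPS (-0.13). For Psmb8 the second probe set gave -0.46 in RIP-OVAhi and -0.37 in OCS/LPS. Psmd13 has 4 probe sets, of which 2 lay below the filter. The second above it gave 0.68 in RIP-OVAhi and 0.99 in OCS/LPS, while the mean of all 4 gave 0.27 in RIP-OVAhi and 0.40 in OCS/LPS. For Psmc1 the mean of both probe sets gave 0.33 in RIP-OVAhi and 0.55 in OCS/LPS. Both OCS/LPS values were still called. RefSeq lists 2 pseudogenes each of Psmb6 and Psmb7 and 1 each of Psma5 and Psmb5, so values of these genes are uncertain where probes match a pseudogene.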

How the data were processed

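RNA of sorted OT-I cells was measured on 7 Affymetrix mouse arrays. The deposited log2 expression values of 45101 probe sets come from GCRMA, per the submitters' processing notes (version not given in the sources used here). It normalizes the arrays jointly, which hides changes common to most genes. They were used as deposited. The labels' protocols give 100 ng of total RNA and 2 rounds of amplification. Gene names came from the platform annotation: 34958 probe sets had 1 symbol, 932 several and 9211 none. All 49 matching genes were matched to RefSeq by Entrez identifier.

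Group means were fitted over all 7 arrays with limma 3.58.1 in R 4.3.3 (lmFit, eBayes), with 3 residual and 2.93 prior degrees of freedom, over 8203 genes at log2 5 or more on at least 2 arrays. p-values are two-sided and Benjamini-Hochberg adjusted per comparison, and SE is the moderated standard error. The Rag group, with 1 array, was assumed to vary like the others. Whether replicate pools were separate experiments is not stated in the labels, so the spread behind the p-values may be technical only. Arrays have no read depth, and their number limits the precision. Genes with every value given are the catalytic subunits, Psme1 and, per comparison, up to 5 called genes per direction with the largest non-overlapping change. Single genes outside this were named after their values were seen, among them Nfe2l2, Jchain, Ms4a1 and Cd79b with array values. The members and lists were chosen with earlier results of these data known. Same-numbered replicates deviated together over 8203 genes (r of 0.325 for RIP-OVAhi and OCS/LPS, 0.348 for RIP-OVAhi and naive, 0.132 for OCS/LPS and naive). The labels do not say what the numbers mark, so the fit has no block, and the value with the replicate number as a block stands beside each call it changed. Alternatives were centring, filters, probe set choice, an intensity trend, a replicate block, other sets of arrays and each array left out; leaving out _s_at and _x_at probe sets was added after seeing the data.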

Additional observations from a re-analysis of the deposited data

How the results depend on the processing

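For the proteasome genes given on every array, 1131 values were compared under the alternatives. Of these, 1005 kept their direction and their side of the threshold, 88 lost a call, 18 gained one and 20 changed sign. None of the last had a difference called in the first place, and the cause was not tested. Outside these genes, Psma1, called in both comparisons with naive, changed sign with the mean of all its probe sets (-0.24 in RIP-OVAhi and -0.02 in OCS/LPS). The count of proteasome genes called in RIP-OVAhi minus naive was 6 after centring, 7 with the mean of all probe sets and 3 with only the 2 groups fitted (fewer arrays), and ranged over 0 to 22 with 1 array left out. OCS/LPS minus naive ranged over 2 to 29, Rag minus naive over 0 to 2, RIP-OVAhi minus OCS/LPS over 0 to 0, RIP-OVAhi minus Rag over 0 to 6 and OCS/LPS minus Rag over 0 to 15. Rag minus naive gave 1 call (Psma4) with no filter. RIP-OVAhi minus Rag gave 1 (Psmg1) with a filter at log2 6, with the mean of probe sets and with an intensity trend. OCS/LPS minus Rag gave 2 after centring, 1 (Psmc3) with no filter, 1 (Psmc1) with the replicate block and 0 with only the 2 groups fitted. The replicate block gave 8 calls for RIP-OVAhi minus naive and 17 for OCS/LPS minus naive, and changed no call of a proteasome gene other than those named beside the results (Psma4, Psmc3, Psmc5, Psmc6, Psmd9, Psmd13 and Psmg1). Over all genes, calls went outside 1.5 times the count mainly with an array left out: 807 to 3281 for RIP-OVAhi minus naive (2429), 1018 to 3646 for OCS/LPS minus naive (2698), 59 to 1622 for Rag minus naive (224), 32 to 416 for RIP-OVAhi minus OCS/LPS (239), 370 to 2549 for RIP-OVAhi minus Rag (1373) and 397 to 2833 for OCS/LPS minus Rag (1483). With only the 2 groups fitted they were 1601, 1802, 0, 416, 0 and 0 in the same order, and with no filter 105 for RIP-OVAhi minus OCS/LPS. Sign changes were: RIP-OVAhi minus naive, Psmb6 0.07 without naive 2, and Psmb8 -0.10 centred, -0.22 with the mean of probe sets, -0.01 without RIP-OVAhi 1 and -0.04 to 0.09 without a naive array; OCS/LPS minus naive, Psmb6 -0.05 centred and -0.05 to 0.24 without a naive array, Psmb8 -0.02 centred and -0.12 with the mean of probe sets. Rag minus naive gave Psmb6 0.08 without naive 2, and Psmb8 -0.21 with the mean of probe sets and -0.00 to 0.12 without a naive array. RIP-OVAhi minus OCS/LPS gave Psmb10 -0.05 without RIP-OVAhi 2 and -0.14 to 0.16 without an OCS/LPS array, Psmb2 -0.28 to 0.05 without a RIP-OVAhi array, and Psmb7 -0.28 to 0.00 without an OCS/LPS array. RIP-OVAhi minus Rag gave Psmb6 0.02 without RIP-OVAhi 2 and Psme1 -0.13 to 0.06 without a RIP-OVAhi array, and OCS/LPS minus Rag gave Psmb10 -0.30 to 0.01 without an OCS/LPS array and Psmb8 -0.03 centred.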
